A study of Homo sapiens with 6 samples.

Results

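The annexins and caveolins described here are 10 genes, ANXA1 to ANXA7 (7 genes), ANXA11, CAV1 and CAV2. They were found by gene name among the 58735 genes of the RNA-seq count table, each in 1 row. H1155 is an established line of neuroendocrine large cell lung cancer. Libraries 1 to 3 of wild-type (WT) H1155 cells were compared with libraries 1 to 3 of H1155 cells labelled GFI1-KO, in which CRISPR/Cas9 with paired guides was aimed at the promoter region of GFI1, a zinc finger repressor of transcription. No drug treatment, time course or other allele was given for either group. GFI1-KO cells were grown from single GFP-positive sorted cells. How many clones the libraries hold, and whether the 3 libraries of a group came from separate cultures, is not given in the sources used here, so the p-values measure the spread between libraries, which may be technical, and the clone and the edit cannot be told apart.

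Annexins are cytosolic proteins that bind acidic phospholipids of membranes in the presence of calcium, and they take part in membrane repair, exocytosis, endocytosis and the control of inflammation. Caveolins are hairpin membrane proteins that, together with cytosolic cavin proteins and with EHD2 and PACSIN proteins at the neck, build caveolae, the small flask-shaped pits of the plasma membrane. CAV2 usually needs CAV1 to leave the Golgi and reach caveolae, and the pair of genes are neighbours in the genome.

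The library totals lay between 14882914 and 17692882 counts. GFI1 itself had 157, 117 and 131 normalized counts in WT libraries 1, 2 and 3 and 166, 178 and 160 in those labelled GFI1-KO, so its RNA was not lower there (log2 fold change 0.31, SE 0.12, adjusted p = 0.0273 by the edgeR quasi-likelihood test). The count of GFI1 therefore does not check the labels, and every direction below rests on the labels. The neuroendocrine identity of the line was visible in both groups. The 9 neuroendocrine markers summed to 1640 to 1670 CPM (counts scaled to a library total of 1000000) in WT and 2020 to 2040 CPM in the libraries labelled GFI1-KO. Among them, 5 of 9 were called higher and 4 lower, beside 36.5% and 35.9% of all genes tested. Of the called-higher ones, SYP had the most counts in the libraries labelled GFI1-KO and rose by log2 1.21. ENO2 had the most in WT and rose by log2 0.16. Among those called lower were INSM1 (log2 −0.08), NEUROD1 (log2 −0.40) and SYT1 (log2 −0.54). In WT, INSM1 and NEUROD1 had more normalized counts (means 6974 and 5905) than SYP (4221), so the larger sum was not a rise of all markers. Markers of other cell types also moved with the group. The 6 fibroblast markers summed to 191 to 196 CPM in WT and 133 to 138 CPM in the other group, with DCN at 0 in every library. Of the 4 tested, 1 was called higher and 3 lower. COL3A1 rose from 2, 3 and 2 counts to 129, 143 and 170, and PDGFRB (log2 −3.24), COL1A1 (log2 −0.41) and COL1A2 (log2 −0.54), the most counted of them, fell. The 4 epithelial markers summed to 205 to 217 against 239 to 263 CPM, but the sum was mostly keratin counts and the list had a median log2 fold change of −1.12, with 1 called higher and 2 lower. KRT8, the most counted, was called higher (log2 0.45), EPCAM (log2 −2.23) and CDH1 (log2 −2.31) were called lower, and KRT18 was not called (log2 −0.01). Of the 50-base words of the canonical transcripts, 39.2% for KRT8 and 52.8% for KRT18 also occur in other genes. With GC content and length corrected, 0 epithelial markers were called higher and 3 lower. PECAM1, the most counted endothelial marker, was called lower (log2 −1.12). The 4 endothelial markers summed to 27.0 to 30.4 against 13.3 to 14.9 CPM, and the 5 leukocyte markers, at most 7 counts each in a library, to 0.255 to 0.47 against 0.171 to 0.509 CPM. In bulk RNA, fewer cells of a type and less RNA per cell cannot be told apart, and the part of these markers in the results below was not tested.

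The promoters of 3 members are shown because the data turn on them. ANXA1 and CAV1 had the largest increases of the set, and CAV2 is the neighbour of CAV1 that did not share its increase with TMM scaling only. With GC content and length corrected, CAV2 was called higher as well, at log2 0.48 beside 2.36 for CAV1. Each window holds the 250 bases before the gene's start in RefSeq (GRCh38.p14), 5′ to 3′ on the gene's strand. Where RefSeq gives several starts, only the window nearest the canonical start of GENCODE was used. Capitals mark AAATCA, the core of the sequence that GFI1 is known to bind, searched on both strands.
ANXA1: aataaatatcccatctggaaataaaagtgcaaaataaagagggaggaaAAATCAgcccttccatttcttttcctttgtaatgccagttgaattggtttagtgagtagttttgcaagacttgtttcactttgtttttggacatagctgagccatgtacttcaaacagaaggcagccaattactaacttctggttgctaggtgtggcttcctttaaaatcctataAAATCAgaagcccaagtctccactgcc
CAV1: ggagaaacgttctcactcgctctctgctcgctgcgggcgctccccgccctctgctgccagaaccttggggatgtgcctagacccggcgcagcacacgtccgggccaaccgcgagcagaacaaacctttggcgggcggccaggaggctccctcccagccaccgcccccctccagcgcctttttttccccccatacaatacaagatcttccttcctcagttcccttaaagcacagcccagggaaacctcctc
CAV2: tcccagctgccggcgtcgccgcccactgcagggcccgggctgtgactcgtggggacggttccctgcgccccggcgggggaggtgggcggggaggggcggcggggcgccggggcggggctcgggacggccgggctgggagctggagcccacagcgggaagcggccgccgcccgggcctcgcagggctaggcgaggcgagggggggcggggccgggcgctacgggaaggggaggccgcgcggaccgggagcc
The ANXA1 window lies at chr9:73151615-73151864 on the plus strand. It holds AAATCA at 2 places on the gene's strand, beginning 202 and 27 bases before the start. The second of them shares 2 bases with a TATAAA that begins 31 bases before the start. The CAV1 window (chr7:116524786-116525035, plus strand) and the CAV2 window (chr7:116499488-116499737, plus strand) hold no AAATCA, nor do the windows used for the other 7 members. RefSeq gives 3 windows each for CAV1 and ANXA11, and 2 each for CAV2, ANXA4 and ANXA6. Matches in their windows farther from the canonical start were not listed, so AAATCA may occur there. Of 35116 promoter windows of this length in the same table, alternative starts included, 11.6% hold AAATCA and 10.7% hold TATAAA on either strand. A TATAAA was also found in the ANXA2 window (chr15:60397987-60398236, minus strand), again 31 bases before the start. The ANXA1 window has a GC content of 38.4% and 0 CpG pairs. The other 9 windows have 63.2% (CAV1) to 83.2% (CAV2) GC and 16 (CAV1) to 35 (CAV2) CpG pairs, beside medians of 58% and 11 over all windows. These matches describe letters, and binding of GFI1 at them was not measured in the libraries analysed here.

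Of the 10 members, 9 passed the filter on low counts, 6 were called higher in the libraries labelled GFI1-KO and 1 was called lower at an adjusted p of at most 0.05. Across the 17514 genes tested 72.4% were called, 36.5% higher and 35.9% lower. The median log2 fold change of the 9 tested members was 0.53, beside 0.0 over all genes tested. CAV1 and ANXA1 were the 2 members called higher by a log2 fold change of at least 1, a size and direction that 10.2% of the tested genes had. For 8 of the 9 tested members WT and GFI1-KO libraries were fully separated in normalized count, which held for 74.4% of all tested genes, so this count alone does not set the members apart. The normalized count is the count scaled by edgeR's TMM factors to a common library size. In order of log2 fold change from the highest, CAV1 ranked 363, ANXA1 983, ANXA2 1988, ANXA11 3997, ANXA6 4303, ANXA5 5577, ANXA7 7957, ANXA4 10160 and CAV2 10433 of 17514.

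**Figure D1:**
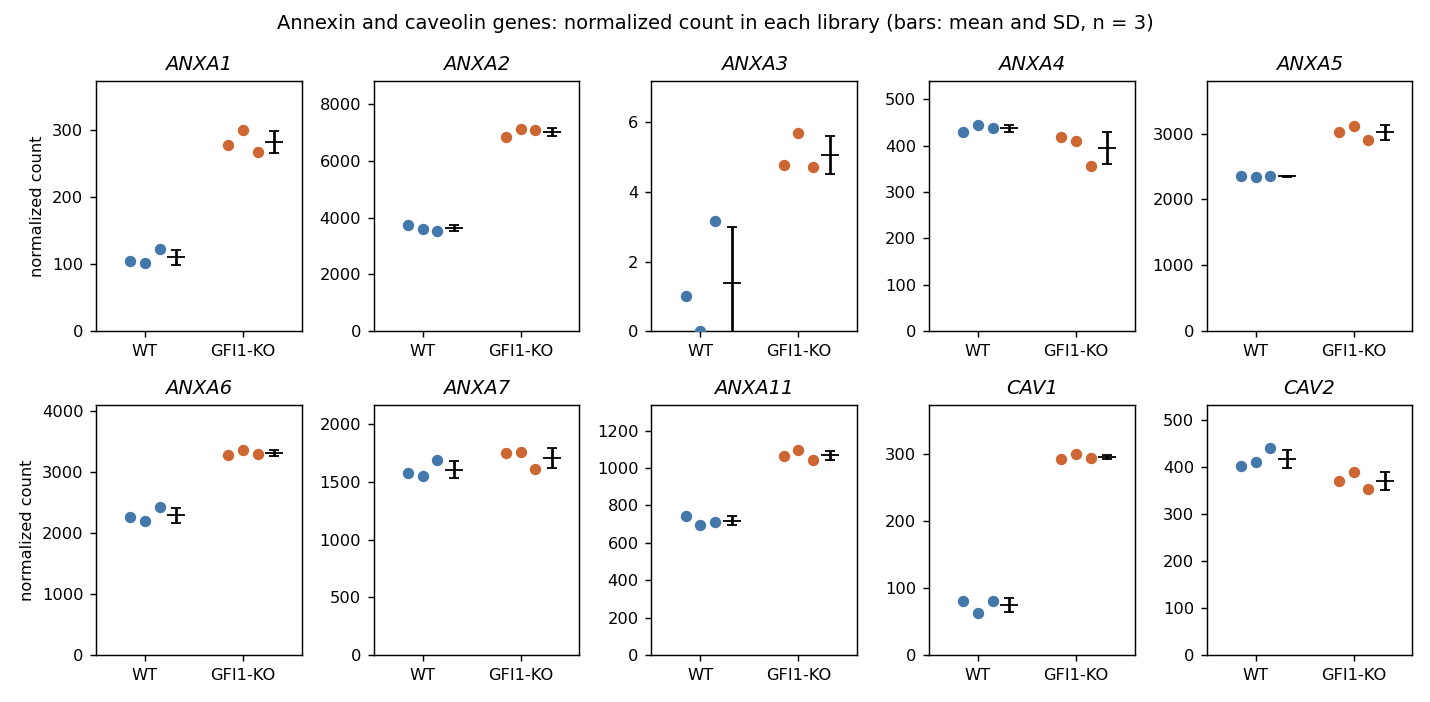
Normalized count (vertical axes, each starting at 0) of the 10 members in the 3 WT libraries and the 3 libraries labelled GFI1-KO. Each point is a library and the bars give the mean and SD (n = 3). ANXA1, ANXA2 and CAV1 show the widest gaps between groups, ANXA7 overlaps, and ANXA3 stays at a handful of counts.

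CAV1, the main structural protein of caveolae in most tissues (GRCh38 chr7:116524785-116561184, plus strand), had the largest increase. It had 79.9, 62.0 and 80.8 normalized counts in WT and 292, 299 and 294 in the libraries labelled GFI1-KO. All 3 libraries of the second group lay above all 3 of the first, and they were close to each other. The means were 74.2 ± 10.6 and 295 ± 4.08 (SD, n = 3), a 3.96-fold difference (log2 1.98, SE 0.12, adjusted p = 3.54e-14 by edgeR).

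CAV2, the partner that assembles with CAV1 (chr7:116287380-116508541, plus strand), went the other way by a small margin. Its normalized counts were 401, 411 and 439 in WT and 369, 389 and 352 in the other group, so the groups were close but did not overlap. The means were 417 ± 19.4 and 370 ± 18.3 (SD, n = 3), 1.13-fold lower (log2 −0.17, SE 0.07, adjusted p = 0.04 by edgeR). The call was lost by DESeq2 (adjusted p = 0.173). It was also lost by edgeR without WT library 3 (log2 −0.14, adjusted p = 0.119), without GFI1-KO library 1 (log2 −0.17, adjusted p = 0.0864) and without GFI1-KO library 3 (log2 −0.14, adjusted p = 0.164). With GC content and length corrected, CAV2 was called higher (log2 0.48, SE 0.07, adjusted p = 3.82e-06 by edgeR), so its direction depends on that correction.

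The ratio of the pair within a library does not depend on the scaling between libraries. The log2 ratio of CAV1 to CAV2, on an FPKM scale (counts divided by gene length and library total), was −1.57, −1.97 and −1.68 in WT and 0.42, 0.39 and 0.50 in the libraries labelled GFI1-KO. All 3 values of the second group were above all 3 of the first. The means were −1.74 ± 0.21 and 0.44 ± 0.06 (SD, n = 3), a difference of 2.17 (exact permutation test, two-sided, p = 0.1, the smallest that 3 against 3 libraries can give). With the canonical transcript length in place of the deposited gene length, the means were −2.23 and −0.06 and the difference was again 2.17, so CAV2 RNA was above CAV1 RNA in WT by both lengths, while their order in the libraries labelled GFI1-KO depended on the length. Corrected for GC content and length, the difference was 1.88.

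ANXA1, a glucocorticoid-induced annexin with anti-inflammatory roles (chr9:73151757-73170393, plus strand), had 105, 101 and 123 normalized counts in WT and 277, 300 and 267 in the libraries labelled GFI1-KO. The groups stood far apart relative to their spread. The means were 110 ± 11.6 and 282 ± 17.0 (SD, n = 3), a 2.56-fold difference (log2 1.36, SE 0.11, adjusted p = 1.85e-11 by edgeR). FPR1, FPR2 and FPR3, receptors that bind ANXA1 or its peptides, had at most 1 count in any library and were not tested.

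ANXA2, which forms a tetramer with S100A10 at the plasma membrane (chr15:60347134-60402883, minus strand), was the member with the most counts. It had 3741, 3619 and 3549 normalized counts in WT and 6846, 7122 and 7087 in the other group. The lowest library labelled GFI1-KO was well above the highest WT library. The means were 3636 ± 97.5 and 7018 ± 151 (SD, n = 3), a 1.93-fold difference (log2 0.95, SE 0.03, adjusted p = 9.32e-19 by edgeR). Of the 50-base words of its canonical transcript 38.2% also occur in other genes, most of them in the processed pseudogene ANXA2P2, so the split of reads between them is uncertain. ANXA2P2 itself went from 234 ± 3.88 to 393 ± 34.0 normalized counts (SD, n = 3), higher by log2 0.75 (adjusted p = 1.6e-08 by edgeR), in the same direction as ANXA2.

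ANXA6, the annexin with a doubled core that binds the plasma membrane and endosomes (chr5:151100712-151157882, minus strand), had 2262, 2194 and 2428 normalized counts in WT and 3279, 3364 and 3307 in the libraries labelled GFI1-KO. The mean rose from 2295 ± 120 to 3317 ± 43.4 (SD, n = 3), 1.45-fold (log2 0.53, SE 0.04, adjusted p = 1.93e-12 by edgeR). ANXA11, which carries a long N-terminal domain and tethers RNA granules to lysosomes (chr10:80150889-80205572, minus strand), had 744, 697 and 713 against 1064, 1096 and 1046. Its mean rose from 718 ± 24.0 to 1069 ± 25.7 (SD, n = 3), 1.49-fold (log2 0.57, SE 0.05, adjusted p = 3.13e-10 by edgeR). For both genes all libraries of the second group lay above those of the first.

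ANXA5, the phosphatidylserine binder used as a probe of dying cells (chr4:121667955-121697113, minus strand), had 2360, 2337 and 2349 normalized counts in WT and 3027, 3118 and 2902 in the other group. The WT libraries were nearly equal, and the groups did not overlap. The mean rose from 2349 ± 11.6 to 3016 ± 108 (SD, n = 3), a 1.28-fold difference (log2 0.36, SE 0.04, adjusted p = 1.63e-09 by edgeR).

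ANXA4, an annexin of epithelial and secretory membranes (chr2:69644425-69827100, plus strand), and ANXA7, also called synexin (chr10:73375101-73414076, minus strand), were not called. ANXA4 had 430, 445 and 438 normalized counts in WT and 419, 410 and 356 in the libraries labelled GFI1-KO, without overlap and with GFI1-KO library 3 apart from the other two. Its log2 fold change was −0.15 (SE 0.08, adjusted p = 0.0828 by edgeR). ANXA7 had 1581, 1550 and 1690 against 1753, 1763 and 1608, the only tested member whose groups overlapped. Its log2 fold change was 0.09 (SE 0.05, adjusted p = 0.0876 by edgeR), and it was called higher without WT library 3 (log2 0.12, adjusted p = 0.0242) and without GFI1-KO library 3 (log2 0.13, adjusted p = 0.0222). Corrected for GC content and length, both were called higher, ANXA4 at log2 0.33 (adjusted p = 0.00048 by edgeR) and ANXA7 at log2 0.33 (adjusted p = 6.93e-07 by edgeR), which turns the direction of ANXA4.

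ANXA3 (chr4:78551519-78610451, plus strand), an annexin known from neutrophils, did not pass the filter on low counts. It had 1, 0 and 3 counts in WT and 5, 6 and 5 in the libraries labelled GFI1-KO. The sums were 4 counts (95% exact Poisson interval 1.09 to 10.2) and 16 counts (9.15 to 26.0), intervals that cover counting error only. The intervals overlap, which is not a test of a difference between the groups. DESeq2, which tested it, gave no call (log2 1.85, SE 1.24, adjusted p = 0.228).

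The fold changes of all genes followed the GC content of their transcripts. From the quartile of tested genes with the lowest GC content to that with the highest, the median log2 fold change was −0.47, −0.16, 0.21 and 0.61. The trend and the label run together in these libraries and cannot be told apart. Among the members, CAV2 had the lowest GC content (36.3%) and ANXA6 the highest (53.8%), with ANXA1 at 40.8%, ANXA4 and CAV1 at 40.9%, ANXA7 at 42.7%, ANXA5 at 43.3%, ANXA2 at 47.4% and ANXA11 at 52.5%. With offsets that remove the trend over GC content and length, all 9 tested members were called higher, where 33.6% of 17415 genes were. ANXA1 was then at log2 1.76, ANXA2 at 1.10, ANXA5 at 0.57, ANXA6 at 0.35, ANXA11 at 0.49 and CAV1 at 2.36.

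**Figure D2:**
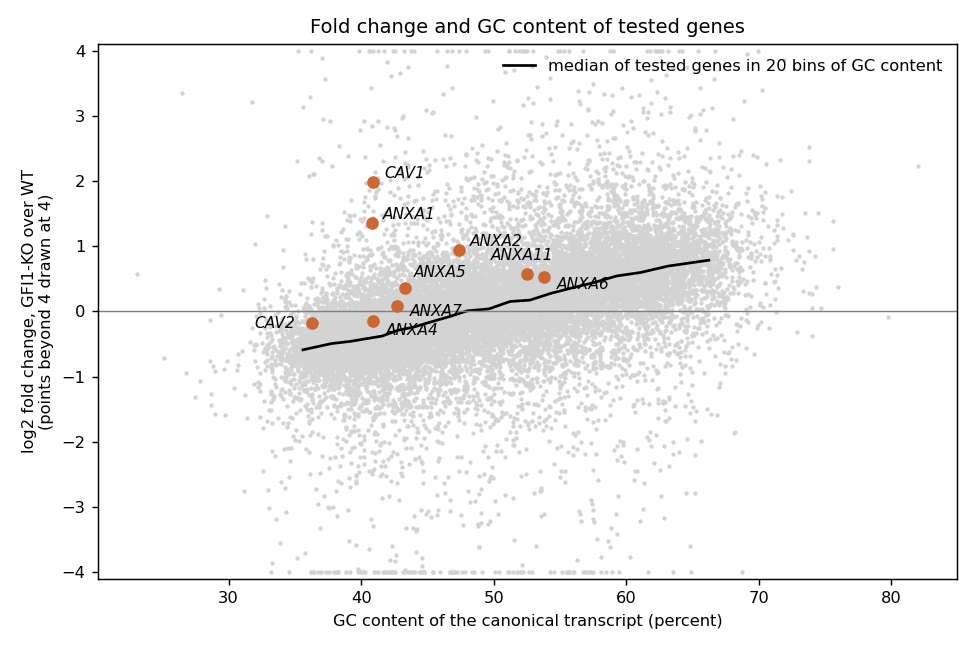
Log2 fold change of the libraries labelled GFI1-KO over WT (vertical axis, points beyond 4 drawn at 4) against the GC content of the canonical transcript in percent (horizontal axis). Grey points are tested genes, the line is their median in bins of GC content, and the named points are the 9 tested members. The line climbs from left to right, and all of the members lie above it.

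**Figure D3:**
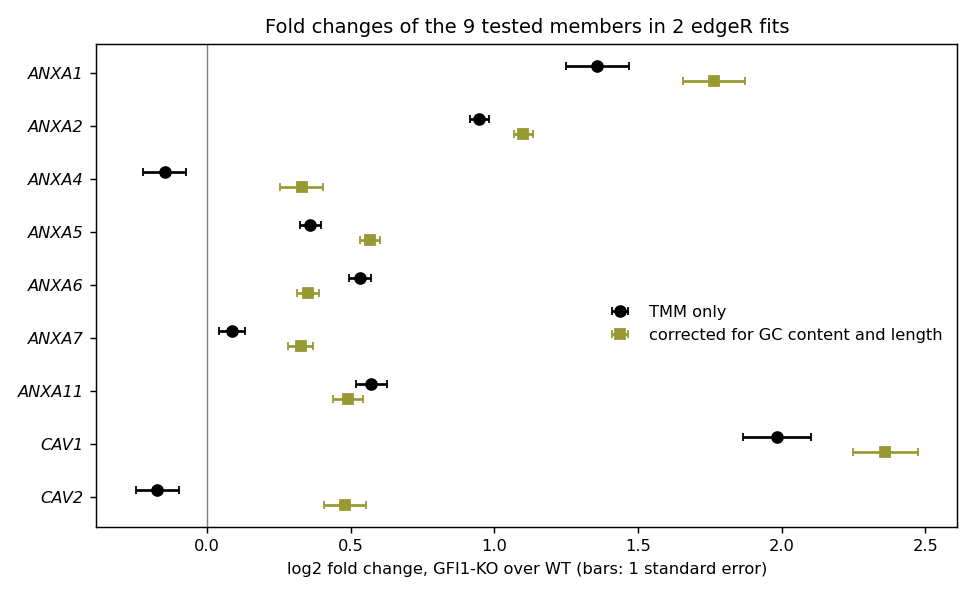
Log2 fold change (horizontal axis, with 1 standard error) of the 9 tested members in 2 edgeR fits, with TMM scaling only (circles) and with GC content and length corrected as well (squares). ANXA4 and CAV2 lie left of 0 in the first and right of 0 in the second, while the other members stay right of 0 in both.

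Levels can be compared between genes only per length. On the FPKM scale with the deposited gene lengths, the order in WT was ANXA5 at 47.0, ANXA7 at 34.1, ANXA6 at 25.7, ANXA2 at 25.0, ANXA11 at 5.12, CAV2 at 3.65, ANXA4 at 2.40, ANXA1 at 1.46, CAV1 at 1.10 and ANXA3 at 0.0165 (means, n = 3). ANXA6 and ANXA2 overlapped between libraries there. In the libraries labelled GFI1-KO the order was ANXA5 at 59.6, ANXA2 at 47.7, ANXA6 at 36.7, ANXA7 at 35.8, ANXA11 at 7.53, CAV1 at 4.34, ANXA1 at 3.71, CAV2 at 3.20, ANXA4 at 2.15 and ANXA3 at 0.0592, with ANXA6 and ANXA7 overlapping. With canonical transcript lengths ANXA2 led in both groups, at a mean of 142 FPKM in WT and 271 in the libraries labelled GFI1-KO, ahead of ANXA5 at 87.0 and 110. The deposited length of ANXA2 is 8824 bases and its canonical transcript has 1554, so its place in the order rests on the length chosen.

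The 8 annexins together were higher in every library labelled GFI1-KO. Their summed FPKM was 141, 138 and 144 in WT and 193, 198 and 189 in the libraries labelled GFI1-KO, with no overlap. The means were 141 ± 2.89 and 193 ± 4.69 (SD, n = 3), a 1.37-fold difference (exact permutation test, two-sided, p = 0.1, the smallest possible). Without ANXA2 the sum went from 116 to 146 FPKM (1.26-fold), and with canonical lengths the full sum went from 338 to 523 FPKM (1.55-fold). The share of ANXA2 in the sum was 18.3%, 18.1% and 17.0% in WT and 24.1%, 24.4% and 25.5% in the other group. Its mean went from 17.8% ± 0.679 to 24.7% ± 0.737 (SD, n = 3; exact permutation test, two-sided, p = 0.1), and with canonical lengths from 42.0% ± 1.11 to 51.8% ± 0.967.

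**Figure D4:**
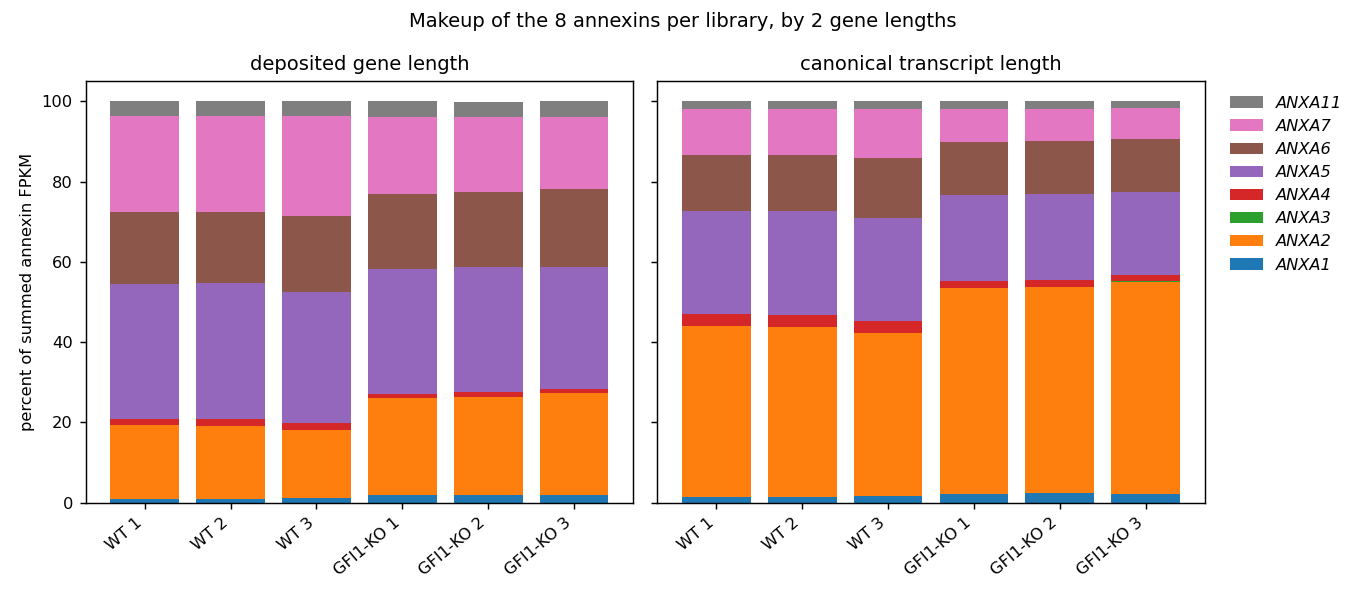
Percent of the summed annexin FPKM (vertical axis) that each of the 8 annexins took in each of the 6 libraries, with the deposited gene length (left) and the canonical transcript length (right). The share of ANXA2 is larger in the libraries labelled GFI1-KO by both lengths, and its level differs between the panels, with WT means of 17.8% and 42.0%.

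Of the remaining annexin genes, ANXA9 and ANXA10 were tested. ANXA9, which lacks the usual calcium sites, was called higher (log2 0.62, SE 0.16, adjusted p = 0.000856 by edgeR), with 68.6 to 85.0 normalized counts in WT and 101 to 125 in the libraries labelled GFI1-KO. It lost the call with GC content and length corrected (adjusted p = 0.122). ANXA10, a liver and stomach annexin, fell (log2 −1.03, SE 0.22, adjusted p = 0.000201 by edgeR), with 56.7 to 67.5 normalized counts in WT and 24.6 to 37.6 in the other group. ANXA8, its near copy ANXA8L1, and ANXA13 had at most 2 counts in any library. Of the 50-base words of the canonical transcripts, 83.2% for ANXA8 and 86.8% for ANXA8L1 also occur in other genes, so their counts may miss reads.

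Genes of the caveola coat other than the 2 members fell into measured and nearly silent ones. CAVIN1, CAVIN2, CAVIN3 and the muscle caveolin CAV3 had at most 3 counts in any library of either group and were not tested. The libraries in which CAV1 was higher thus had almost no counts of CAVIN1, CAVIN2 and CAVIN3, which coat caveolae in other tissues. For CAVIN3, 36.7% of exon bases lie under exons of a gene on the opposite strand. Of the 50-base words of its canonical transcript, 39.9% also occur in other genes, so its count may miss reads. Of the 4 tested genes of this list of 8, 3 were called higher and 0 lower (median log2 fold change 0.91). Over all genes tested, 36.5% were called higher and 35.9% lower. This list and those below were chosen with earlier results of these data known, so their counts and medians describe the chosen genes only. EHD2, the ATPase at the neck of caveolae, had 536 to 560 normalized counts in WT and rose to between 1439 and 1474 (log2 1.40, SE 0.05, adjusted p = 1.97e-18 by edgeR). Its GC content of 61.2% places it in the highest quartile of tested genes, whose median log2 fold change was 0.61. PACSIN2 and PACSIN3, which bend membranes, rose by log2 0.88 and 0.93, and PACSIN3 lost its call with GC content and length corrected (log2 0.21, adjusted p = 0.0578 by edgeR). That correction left 2 genes of this list called higher, and 3 with the replicate number added to the fit as a block. CAVIN4, the muscle cavin, was at 102 to 124 normalized counts in WT and 102 to 104 in the other group and was not called (log2 −0.11, adjusted p = 0.489 by edgeR).

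Of the EHD2 paralogs and flotillins, 3 of 5 were called higher and 1 lower, beside 36.5% and 35.9% of all genes tested. EHD1, an endosomal recycling ATPase, rose by log2 1.67 (SE 0.04, adjusted p = 1.32e-21 by edgeR) and EHD3 fell by 0.45 on the log2 scale (adjusted p = 6.97e-06). With a GC content of 60.8%, EHD1 also lies in the highest GC quartile. FLOT1 and FLOT2, which form flotillin domains of the membrane apart from caveolae, were called higher at log2 0.35 and 0.25, and both were called lower with GC content and length corrected, at −0.09 and −0.28. EHD4 was at log2 0.10 and was not called, and 45.7% of its exon bases lie under exons of a gene on the opposite strand.

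The annexin partners included the S100 proteins, small calcium-binding ligands of annexins. Of 10 genes in this list, 7 were tested, 6 were called higher and 1 lower (median log2 fold change 1.53). Over all genes tested, 36.5% were called higher and 35.9% lower, and this list too was chosen with earlier results known. S100A10, the ligand of ANXA2, had 523 to 546 normalized counts in WT and rose to between 1449 and 1639 (log2 1.53, SE 0.06, adjusted p = 2.23e-18 by edgeR). AHNAK, the giant scaffold that binds the ANXA2 and S100A10 tetramer, rose by log2 2.14 (SE 0.05, adjusted p = 8.36e-23). S100A6 had 2982 to 3103 normalized counts in WT and rose to between 16466 and 18112 (log2 2.50, SE 0.04, adjusted p = 2.07e-26) and S100A4 by log2 1.61. S100A11, the ligand of ANXA1, was called higher at log2 0.38, a call that was lost with GC content and length corrected (log2 0.06, adjusted p = 0.369 by edgeR). SRI, the calcium-binding sorcin that binds ANXA7, fell by 0.95 on the log2 scale (SE 0.05, adjusted p = 1.95e-14). PDCD6, which binds ANXA7 and ANXA11, was called higher at log2 0.15, though 93.8% of the words of its canonical transcript also occur in other genes.

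Genes of plasma membrane repair, a process in which annexins cap wounds, did not move together. Of 11 tested, 7 were called higher and 3 lower (median log2 fold change 0.13), beside 36.5% and 35.9% of all genes tested. MYOF, the ferlin myoferlin, rose from 10.2, 11.1 and 15.7 normalized counts to 145, 133 and 125, with no overlap (log2 3.43, SE 0.22, adjusted p = 1.79e-13 by edgeR). Its relative DYSF, dysferlin, fell by 0.58 on the log2 scale (SE 0.16, adjusted p = 0.00289), and TRIM72, which nucleates repair patches in muscle, fell by 1.76 (SE 0.28, adjusted p = 4.28e-06). CHMP2A, an ESCRT-III subunit, rose by log2 1.05, VPS4A, the ATPase that takes ESCRT-III apart, by 0.48 and the calpain subunit CAPNS1 by 0.39. PDCD6IP, the ESCRT adaptor ALIX, fell by 0.36 on the log2 scale. With GC content and length corrected the calls of CAPNS1 (log2 −0.18) and PDCD6IP (log2 0.19) turned, and VPS4A shares 41.1% of its words with other genes.

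The neighbours of the caveolin genes on chromosome 7 changed in both directions. Of 5 genes, 4 were tested, 1 was called higher and 3 lower, beside 36.5% and 35.9% of all genes tested. MET, the receptor of hepatocyte growth factor, rose from 8.19, 8.86 and 5.25 normalized counts to 58.1, 37.9 and 47.1 (log2 2.66, SE 0.33, adjusted p = 5.53e-08 by edgeR). CAPZA2, an actin capping subunit, fell by 0.48 on the log2 scale, TES by 0.33 and ST7 by 0.32, and none of these 3 was called with GC content and length corrected, where their log2 fold changes were 0.03, −0.05 and −0.07. TFEC had at most 1 count in a library. The order along the chromosome is TFEC, TES, CAV2, CAV1, MET, CAPZA2 and ST7, so among these genes CAV1 and MET, which had the largest increases, are neighbours.

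**Figure D5:**
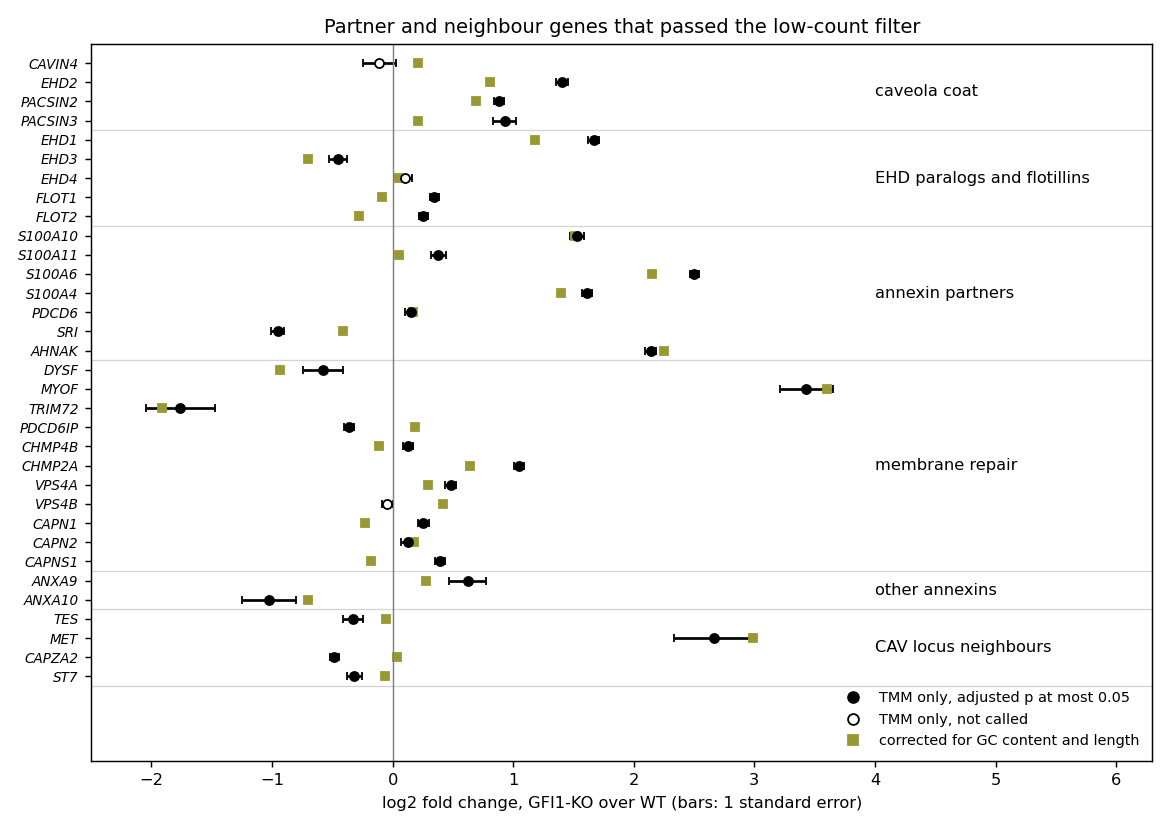
Log2 fold change of the libraries labelled GFI1-KO over WT (horizontal axis) for the tested genes of 6 lists. Circles with 1 standard error come from TMM scaling only, filled where the adjusted p was at most 0.05, and squares from the fit with GC content and length corrected. MYOF at 3.43, MET at 2.66, S100A6 at 2.50 and AHNAK at 2.14 lie farthest right, and TRIM72 at −1.76 farthest left.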

How the data were processed

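RNA was selected by poly-T beads and sequenced on an Illumina instrument. Per the labels and the study's methods the authors mapped reads to GRCh38/hg38 and deposited raw counts per gene, with gene lengths and positions. The methods name Hisat2 and featureCounts, and the submitters' processing notes name Bowtie2 and HTSeq, so the counter and its use of strand are uncertain. Of 58735 genes, 58207 (99.1%) had their identifier in GENCODE 44.

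Counts were tested with edgeR 4.0.16 (TMM factors, filterByExpr, quasi-likelihood F test, Benjamini-Hochberg over all 17514 genes tested, adjusted p at most 0.05) in R 4.3.3. FPKM was computed from counts, gene length and library total. The scale of normalized counts is the mean effective library size. Sums, shares and ratios were compared with two-sided exact permutation tests (scipy 1.17.1). Alternatives were DESeq2 1.42.0, limma 3.58.1 (voom), other scaling factors and filters, a replicate block, offsets for GC content and length (natural splines with 5 degrees of freedom), leaving out each library, and an adjusted p of at most 0.01. Alternatives chosen after seeing the data were the canonical length and the corrected CAV1 to CAV2 difference. DESeq2 was among the tools the study used for its own tests. The floor of 3 counts corresponds to 0.17 to 0.202 CPM and covers counting error only.

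The members, and all lists, were chosen with earlier results of these data known. Named were the 10 members, GFI1, up to 4 called genes a list and direction by size of log2 fold change, marker genes, and near copies of members. S100A11, PDCD6, CAVIN4, EHD4, the less counted cell markers and genes at a few counts were named after their values were seen. In a simulation of GFI1-KO against WT with 17514 genes, 85% of 200 genes changed by a log2 of 1 were recovered and 5.03% of calls were of unchanged genes. With a simulated GC trend 11031 genes were called, and 178 after the correction. The simulated trend was linear in GC content, with none over length. In the data 72.4% of tested genes were called, and after the correction 5857 of 17415 genes were called higher and 4777 lower. The simulated rates may therefore not hold for the data. No 2 libraries of a group agreed within sampling noise. The values of 1 marker gene are not reported here. Other assays and cell lines of the study were not analysed here.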

Additional observations from a re-analysis of the deposited data

How the results depend on the processing

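ANXA1, ANXA2, ANXA5, ANXA6, ANXA11 and CAV1 kept their direction and their call in every alternative run, with log2 fold changes of 1.30 to 1.76, 0.91 to 1.10, 0.32 to 0.57, 0.35 to 0.57, 0.49 to 0.59 and 1.87 to 2.36. The count of members called higher ranged from 6 to 9. The count called lower was 1, and became 0 by DESeq2, without a filter, with the adjusted p held to 0.01 and with GC content and length corrected (0 also with a replicate block added), 2 with upper-quartile factors, and 0 to 1 when a library was left out. With upper-quartile factors ANXA4 was called lower (log2 −0.19, adjusted p = 0.0274 by edgeR). CAV2 had an adjusted p of 0.105 by edgeR without a filter. The correction for GC content and length turned ANXA4 to log2 0.33 and CAV2 to 0.48, and to 0.33 and 0.48 again with the replicate block. Replicate numbers did not pair the libraries, since the deviations of same-numbered libraries correlated at −0.00617, 0.0134 and 0.0213, and the block alone left 6 members higher and 1 lower (CAV2, log2 −0.17, adjusted p = 0.0491 by edgeR). The correction for GC content and length, with or without the block, left 0 of the other annexins higher, 1 EHD paralog or flotillin higher and 3 lower, 5 membrane repair genes lower, 0 neighbours of the caveolins lower, 3 neuroendocrine markers higher and 0 epithelial markers higher. A minimum of 10 counts in every library left 0 of the caveolin neighbours higher, 1 epithelial marker lower and 0 fibroblast markers higher, because it removed low genes from the test. The range over left-out libraries was 0.44 to 0.47 (log2) for the annexin sum, 6.5 to 7.2 percentage points for the ANXA2 share and 2.06 to 2.26 (log2) for the CAV1 to CAV2 ratio. The cause of the changes under the correction was not tested. Depth limits ANXA3, ANXA8, ANXA13, CAVIN1, CAVIN2 and CAVIN3, whose counts are near the floor of 3. Sequence shared with other genes also limits ANXA8 and CAVIN3.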
